A study of Mus musculus with 8 samples.

Results

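Circular RNAs (circRNAs) are loops closed by back-splicing, in which a downstream splice donor is joined to an upstream splice acceptor, and the core circles described here are those with a value above 0 in every one of the 6 deeper heart libraries of a pressure overload study. They number 1125 of the 27391 circles listed, and come from 821 of 6492 host genes. The members were selected on their measured values, so their presence in these 6 libraries is not a result. Hearts came from male wild-type (WT) mice and were collected 8 weeks after surgery, which was a sham procedure in 4 and transverse aortic constriction (TAC) in 4. TAC places a narrowing on the aortic arch that raises the load of the left ventricle, and it is a common model of cardiac hypertrophy. The whole tissue was used, so fewer cells of a type and less RNA per cell cannot be told apart. The deeper libraries are sham replicates 1, 3 and 4 and TAC replicates 1, 3 and 4, and sham replicate 2 and TAC replicate 2 were not used in the selection.

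The reads counted are back-spliced reads, which cross the closing junction of a circle, and levels are normalised reads, that is reads divided by a size factor for each library and not scaled by length. The deeper libraries held 17890 to 100142 back-spliced reads in all, against 3963 in sham replicate 2 and 1119 in TAC replicate 2. One read was worth 0.195 to 1.03 normalised reads in the deeper libraries, 4.54 in sham replicate 2 and 5.77 in TAC replicate 2, so a single read sets a level there that exceeds the median core circle. The number of circles did not follow the number of reads: sham replicate 4, with the most reads, held 5600 circles, and TAC replicate 4, with 36120 reads, held 11550. Both shallow libraries stood apart from their groups: in the rank order of the core circles each was closer to the deeper libraries of the other group than to those of its own, as given below. Groups were taken from the labels throughout, and whether these 2 libraries carry the right labels was not tested, so values over 8 libraries are read beside those over the 6 deeper ones. Among hosts of cardiomyocyte markers, 10 to 12 of 18 had a circle in each sham library and 5 to 14 in each TAC library, with summed levels of 205 to 945 and 289 to 1781 normalised reads. These ranges overlapped only through the shallow libraries, with 945 in sham replicate 2 and 289, from 5 hosts, in TAC replicate 2. The deeper libraries held 205 to 384 in sham and 1224 to 1781 in TAC, or 1.27 to 2.48% and 5.33 to 7.23% of reads. Slc8a1, described below, is among these hosts. No circle was listed for Tnni3, Pln or Lmod2. Fibroblast marker hosts summed to 0 to 29.0 normalised reads per library, endothelial hosts to 40.4 to 137 and leukocyte hosts to 11.5 to 43.2.

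As background, a circRNA has no free ends, resists exonucleases and can outlast the linear messages of its host, so that abundant circles are often those of long-lived, non-dividing cells such as cardiomyocytes. Most known circles consist of a few coding exons and are often flanked by long introns with inverted repeats. The second exon of the gene is a frequent start, while the first exon lacks the splice acceptor that back-splicing needs. RNA-binding proteins such as Quaking and muscleblind are known to promote circle formation.

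The closing junction is the sequence that tells a circle from its linear host transcript, and it is printed here for the abundant and the stable core circles to which the results below return. Each line gives the last 25 nt of the circle in lower case and, in capitals, its first 25 nt, which follow the joint. The sequences were assembled from GENCODE M21 transcripts (mm10), 5′ to 3′ on the transcript strand, and each circle is coding throughout.
Ogdh exons 3 to 4: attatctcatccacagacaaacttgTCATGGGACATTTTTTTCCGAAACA
Cpeb3 exons 8 to 10: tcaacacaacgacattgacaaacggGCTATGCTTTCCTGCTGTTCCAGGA
Arhgap32 exons 14 to 18: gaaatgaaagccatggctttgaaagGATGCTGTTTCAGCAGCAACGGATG
Nfix exon 2: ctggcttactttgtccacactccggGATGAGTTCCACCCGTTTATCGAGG
Qk exons 2 to 4: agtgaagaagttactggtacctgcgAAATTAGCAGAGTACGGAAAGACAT
Rad52 exons 10 to 11: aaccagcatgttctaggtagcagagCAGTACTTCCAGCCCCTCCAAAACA
Lrch3 exons 2 to 6: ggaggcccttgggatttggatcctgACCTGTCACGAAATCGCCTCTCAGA
Rnf169 exons 2 to 4: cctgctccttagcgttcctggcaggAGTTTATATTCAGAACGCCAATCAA
Lrrc2 exons 3 to 6: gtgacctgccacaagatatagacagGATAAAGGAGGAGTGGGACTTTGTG
Pank1 exon 2: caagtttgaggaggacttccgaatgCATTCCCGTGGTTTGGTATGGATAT
Camsap1 exons 2 to 3: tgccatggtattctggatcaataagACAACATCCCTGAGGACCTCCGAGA
Mkln1 exons 2 to 6: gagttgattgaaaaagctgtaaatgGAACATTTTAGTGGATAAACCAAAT
Amotl1 exons 4 to 6: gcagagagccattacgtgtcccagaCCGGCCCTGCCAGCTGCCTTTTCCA

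Short circles can be shown whole, with the first and the last 6 nt, which are joined to each other, in capitals. Ogdh exons 3 to 4 (chr11:6313788-6317080, + strand, 295 nt) is the circle that ranked among the 10 highest in both groups. Med13l exon 2 (chr5:118593333-118593570, + strand, 238 nt) is a single-exon circle with a higher level in the deeper sham libraries.
Ogdh exons 3 to 4: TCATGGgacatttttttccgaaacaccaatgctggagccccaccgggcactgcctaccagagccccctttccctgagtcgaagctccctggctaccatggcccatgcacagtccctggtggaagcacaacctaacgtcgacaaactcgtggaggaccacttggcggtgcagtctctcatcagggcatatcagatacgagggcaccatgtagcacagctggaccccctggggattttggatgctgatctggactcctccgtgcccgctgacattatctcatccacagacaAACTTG
Med13l exon 2: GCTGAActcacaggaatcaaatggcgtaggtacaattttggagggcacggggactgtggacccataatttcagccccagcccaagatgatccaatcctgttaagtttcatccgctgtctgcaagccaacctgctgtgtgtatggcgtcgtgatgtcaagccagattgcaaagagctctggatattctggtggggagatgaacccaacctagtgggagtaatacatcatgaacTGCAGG

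Core circles were made of few exons. Of the 1121 exonic ones, 42 (3.75%) had 1 exon, 267 (23.8%) had 2, 331 (29.5%) had 3, 350 (31.2%) had 4 or 5, 119 (10.6%) had 6 to 9 and 12 (1.07%) had 10 or more. Among the 26266 other circles, 20.9% had 6 to 9 exons and 7.08% had 10 or more. The median exon number was 3 in the core and 4 in the others. Circles seen in exactly 5 of the 6 deeper libraries, 971 in number, lay between them, with 13.2% at 6 to 9 exons and 1.66% at 10 or more. The remaining 4 core circles were typed as intronic (ciRNA): a pair from Mybpc3, the cardiac myosin-binding protein C, and 1 each from Sorbs2 and Ppp4r1.

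**Figure D1:**
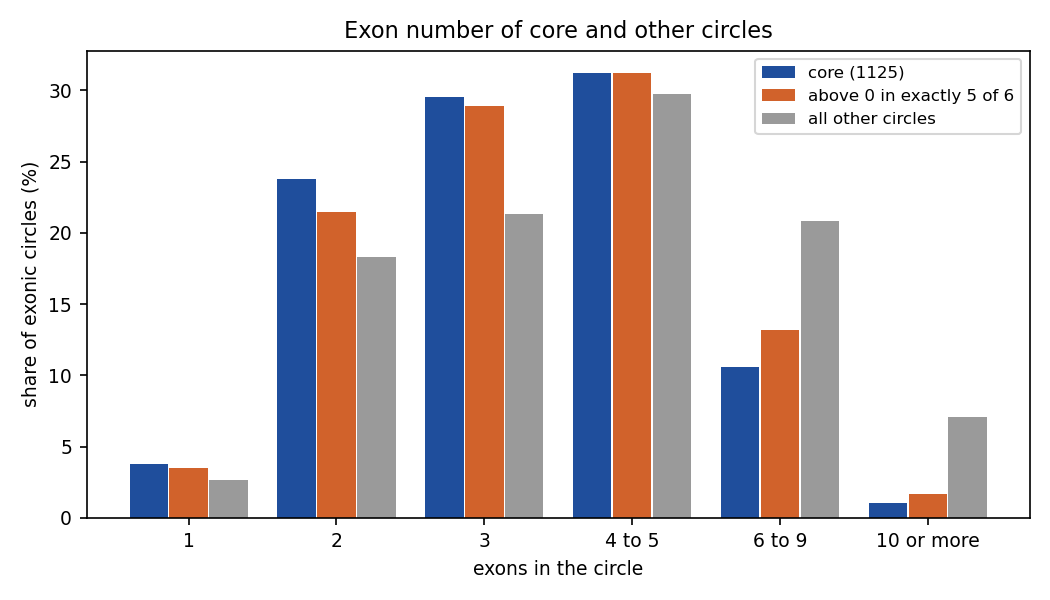
Share of exonic circles (percent, vertical axis) by the number of exons in the circle (horizontal axis) for core circles, circles above 0 in exactly 5 of the 6 deeper libraries, and all circles that are not core circles. Core circles of 2 or 3 exons made up 23.8% and 29.5%, and those of 10 or more exons 1.07% against 7.08% of the others.

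Of the 1117 core circles matched to a GENCODE M21 transcript, 415 (37.2%) began at exon 2, against 29.5% of the circles in exactly 5 libraries and 22.4% of all others. A start at exon 1 occurred in 2 core circles and an end at the last exon in 0 of 1117. The median spliced length was 402 nt (quartiles 330 and 535) against 509 nt in the others, and the median GC content was 47.4% against 48.3%. Coding sequence filled 932 core circles (83.4%) throughout, against 88.4% of the others, and 377 (33.8%) had a length that is a multiple of 3. Core circles were also the more abundant ones, with a median of 4.47 normalised reads over the deeper libraries against 1.78 for circles in exactly 5 of them and 0.172 for all others. Detection in every library selects for abundance, and whether exon number, length and first exon differ at equal abundance was not tested.

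Single-exon core circles were mostly second exons: 29 of the 41 matched to a transcript were exon 2. They included exon 2 of Slc8a1 (the sodium-calcium exchanger), Nfix (a nuclear factor I transcription factor), Hipk3 (a nuclear kinase), Med13l (of the Mediator kinase module), Insr (the insulin receptor) and Tcf20 (a transcriptional coregulator). The last was the longest of them, at 5772 nt. At the other end stood 12 circles of 10 or more exons. The longest, Ttn exons 84 to 118, joined 35 exons of titin, the elastic spring of the sarcomere, over 6501 nt (chr2:76857904-76884197, - strand). Its level was 26.2, 40.9, 16.6 and 16.3 normalised reads in sham replicates 1 to 4 and 38.7, 75.1, 25.7 and 66.8 in TAC replicates 1 to 4, so it was seen in all 8 libraries and the groups overlapped. Titin's next circle, exons 85 to 118, had the same end and a start 1 exon later. Other multi-exon hosts were Ttc3, Nsmaf, Snx13 and Kcnt2.

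Most hosts gave a single core circle. That held for 613 of 821 hosts, while 144 gave 2, 46 gave 3 and 18 gave 4 or more, and 512 of the 1125 circles came from hosts with 2 or more. Circles of one host often share exons and splice sites, so they are not independent observations. Arhgap10, a GTPase-activating protein, had the most, 8 core circles of 40 listed, followed by Asph with 6 of 34 and the ryanodine receptor Ryr2 with 6 of 150. Arhgap26, Eri3, Ttc3 and Utrn were among those with 5 each. Eri3, an exoribonuclease gene, had 5 of 11 listed circles in the core, and these used 2 start exons and 3 end exons.

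The Arhgap10 circles were unequal. Exons 14 to 18 averaged 89.7 ± 43.1 normalised reads in the deeper sham libraries and 27.3 ± 8.04 in the deeper TAC libraries (SD, n = 3 each), and exons 9 to 12 averaged 88.4 ± 34.2 and 13.3 ± 2.78. These 2 ranked 5 and 6 within sham but 77 and 186 within TAC, and both were called lower in TAC in the 6 deeper libraries by the test described below. The remaining 6 averaged between 2.90 and 17.0 in sham and between 2.16 and 9.76 in TAC, and none was called. In Ryr2, which releases calcium into the cardiomyocyte at each beat, exons 24 to 27 averaged 32.7 in sham and 35.5 in TAC, while the circle with the same start and 2 further exons, 24 to 29, averaged 7.01 and 68.4.

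The core was also examined in the 2 libraries that played no part in its selection. Sham replicate 2 held 507 (45.1%) of the core circles, against 25.4% of the circles in exactly 5 deeper libraries, 14.2% of those in exactly 4 and 5.04% of all circles outside the core. TAC replicate 2 held 194 (17.2%), against 7.21%, 4.08% and 1.42%. Altogether 115 core circles were above 0 in all 8 libraries. These same 115 circles set the deposited size factors, because the median-of-ratios method uses features with no 0, so the scale of every level here rests on core circles. Depth limits detection there, since 3 reads, the limit that a count of 0 allows, equal 13.6 and 17.3 normalised reads in these libraries.

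The share of all reads held by core circles was 56.2%, 43.8%, 57.0% and 56.3% in sham replicates 1 to 4 and 47.1%, 50.1%, 48.1% and 46.5% in TAC replicates 1 to 4. Sham replicate 2 lay below all TAC libraries, and the other sham libraries lay above them. The means were 53.3 ± 6.37% in sham and 48.0 ± 1.60% in TAC (SD, n = 4 each), a difference of -5.32 percentage points that did not pass (two-sided exact permutation test, p = 0.143, adjusted over 3 library measures p = 0.214). Over the 3 deeper libraries per group the difference was -9.22 points, with p = 0.1, the smallest that an exact permutation test of 3 against 3 can give. Since the deeper libraries chose the circles, the share in them is in part fixed by that choice.

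Single-exon circles held more of the core's reads in TAC. Their share of exonic core reads was 4.91%, 10.2%, 4.28% and 4.97% in sham replicates 1 to 4 and 15.9%, 10.3%, 13.8% and 10.5% in TAC replicates 1 to 4. The lowest TAC library, replicate 2, stood at 10.3% (95% Wilson interval 8.08 to 13.1%) and the highest sham library, also replicate 2, at 10.2% (8.82 to 11.7%), so the groups did not overlap but these intervals did; the intervals cover counting error only. The means were 6.08 ± 2.74% and 12.6 ± 2.70% (SD, n = 4 each), a difference of 6.55 points with p = 0.0286, the smallest that an exact permutation test of 4 against 4 can give, and an adjusted p of 0.0857, so it did not pass after correction. Without the Slc8a1 circle, an alternative added after seeing the data, the shares were 4.64%, 6.88%, 4.05% and 4.83% in sham and 8.39%, 8.71%, 8.88% and 7.63% in TAC, a difference of 3.30 points (exact p = 0.0286). With each detected core circle counted once, whatever its reads, the difference was 0.41 points (exact p = 1). All core circles are present in the 6 deeper libraries by the rule, so that measure is equal in them. The 0.41 points therefore come from the 2 shallow libraries only, which held 507 and 194 core circles. The mean exon number of core reads was 3.53, 4.12, 3.41 and 3.32 in sham and 3.71, 3.66, 3.71 and 3.79 in TAC, a difference of 0.12 with an exact permutation p of 0.571. That difference in mean exon number was -0.14 when each core circle was counted once, again through the 2 shallow libraries only. It was 0.033 without sham replicate 4 and 0.30 without sham replicate 2 (exact p = 0.0286).

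The most abundant core circles differed between the groups. By the mean of the 3 deeper libraries, the 10 highest in sham were, in order, Cpeb3 exons 8 to 10, Arhgap32 exons 14 to 18, Asph exons 2 to 3, Ogdh exons 3 to 4, Arhgap10 exons 14 to 18 and 9 to 12, Med13l exon 2, Ube3a exons 2 to 4, Rnf169 exons 2 to 4 and Erbin exons 2 to 4. In TAC they were Slc8a1 exon 2, Nfix exon 2, Qk exons 2 to 4, Fhl2 exons 2 to 3, Rad52 exons 10 to 11, Ttn exons 104 to 110, Lrch3 exons 2 to 6, Ogdh exons 3 to 4, Hipk3 exon 2 and Stk39 exons 2 to 5. The lists shared 1 circle of 10, that of Ogdh. Of the top 50 they shared 20, of the top 100 they shared 45 and of the top 200 they shared 115. These ranks use the libraries that chose the circles and are given as a description.

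**Figure D2:**
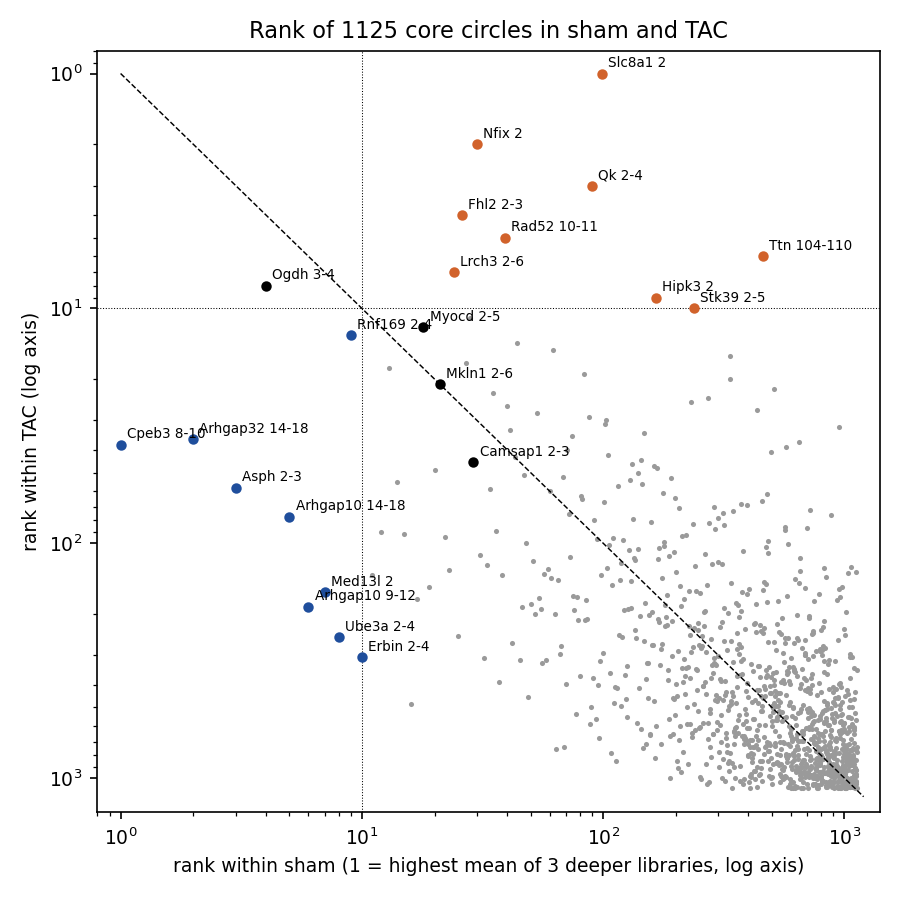
Rank of each of the 1125 core circles within sham (horizontal, log axis) and within TAC (vertical, log axis, rank 1 at the top), by the mean of the 3 deeper libraries per group; the dashed line marks equal ranks and the dotted lines the top 10. Blue points are in the top 10 of sham, orange points in that of TAC, and Ogdh, in both, is black, as are Myocd, Mkln1 and Camsap1, which ranked 18, 21 and 29 in sham and 12, 21 and 45 in TAC.

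Ogdh encodes the E1 subunit of the 2-oxoglutarate dehydrogenase complex of the citric acid cycle. Its circle, exons 3 to 4, stood at 162, 63.6, 127 and 231 normalised reads in sham replicates 1 to 4 and 88.5, 162, 95.7 and 116 in TAC replicates 1 to 4. The groups overlapped only through the shallow libraries: the lowest deeper sham library was above the highest deeper TAC library. Its rank was 4 in sham and 8 in TAC. The log2 fold change over the deeper libraries was -0.75 ± 0.31 (SE; limma, adjusted p = 0.0916), so it did not pass.

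Cpeb3, a cytoplasmic polyadenylation element binding protein that controls translation, gave the circle ranked 1 in sham and 38 in TAC (chr19:37044522-37068291, - strand). Its level was 267, 86.3, 125 and 163 in sham and 38.7, 17.3, 32.9 and 66.8 in TAC, and every sham library lay above every TAC library. Arhgap32, a GTPase-activating protein, ranked 2 and 36, with 92.1, 4.54, 162 and 269 in sham and 52.05, 0, 54.6 and 36.3 in TAC. Here the shallow sham library, with 1 read, fell below the 3 deeper TAC libraries. Asph exons 2 to 3, from the gene of aspartate beta-hydroxylase and of junctin, a protein of the sarcoplasmic reticulum, ranked 3 and 58. Its sham values of 39.8, 4.54, 123 and 358 differed among the deeper libraries too, and its TAC values were 33.5, 40.4, 27.8 and 38.2.

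Slc8a1 exon 2 ranked 99 in sham and 1 in TAC (chr17:81647809-81649638, - strand, 1830 nt), with 24.6, 277, 20.7 and 15.95 normalised reads in sham and 952, 57.7, 559 and 331 in TAC. The shallow library of each group stood apart from its group, sham replicate 2 above the other sham libraries and TAC replicate 2 below the other TAC libraries. Nfix exon 2 ranked 30 and 2 (chr8:84771784-84772315, - strand, 532 nt), with 68.6, 118, 25.7 and 36.6 in sham and 289, 51.96, 337 and 285 in TAC. The 3 deeper TAC libraries lay above all sham libraries and TAC replicate 2 lay within them. Quaking (Qk), an RNA-binding protein and itself a known promoter of circle formation, gave the circle of exons 2 to 4, ranked 90 and 3, with 27.3, 59.1, 16.6 and 21.01 in sham and 187, 5.77, 176 and 116 in TAC.

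Fhl2, a LIM-domain protein of the sarcomere, ranked 26 and 4, with 69.8, 59.1, 37.3 and 35.99 in sham and 114, 28.9, 163 and 143 in TAC. Rad52, a protein of homologous recombination, ranked 39 and 5, with 39.1, 186, 21.5 and 47.5 in sham and 118, 0, 162 and 127 in TAC. In sham replicate 2 it reached a level above every TAC library, and in TAC replicate 2 it had no read. Lrch3, a leucine-rich repeat protein, ranked 24 and 7, with 48.5, 68.1, 47.2 and 51.9 in sham and 141, 0, 111 and 89.7 in TAC. Its 4 sham libraries lay close together, and no read was seen in TAC replicate 2, which allows up to 17.3 normalised reads.

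**Figure D3:**
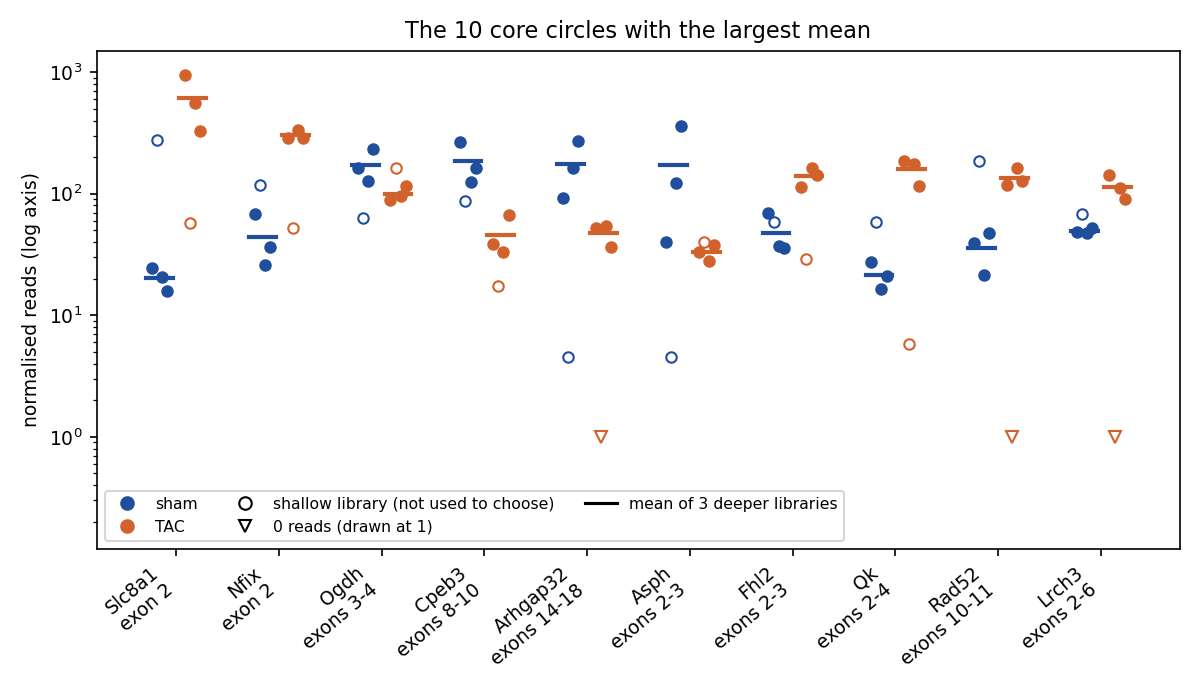
Normalised reads (vertical, log axis) of the 10 core circles with the largest mean over the 6 deeper libraries, by library. Filled points are deeper libraries, open circles the shallow libraries, triangles libraries with 0 reads drawn at 1, and bars the mean of 3 deeper libraries. For Slc8a1 the open points of sham (277) and TAC (57.7) lie away from the filled points of their groups.

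Among the 6 deeper libraries, ranks were closer within a group than between groups. Over the 1125 circles, Spearman's rank correlation was 0.740 to 0.810 for the 3 pairs of deeper TAC libraries, 0.654 to 0.676 for the 3 pairs of deeper sham libraries and 0.384 to 0.613 for the 9 pairs between groups. Of the top 50 circles of a library, pairs within TAC shared 40 to 42, pairs within sham 30 to 35 and pairs between groups 14 to 24. For the 126 circles with at least 10 reads in each deeper library, it was 0.808 to 0.814 within TAC, 0.705 to 0.841 within sham and 0.149 to 0.541 between groups. The 2 shallow libraries went the other way. Sham replicate 2 gave 0.487 to 0.527 with the deeper TAC libraries and 0.334 to 0.433 with the deeper sham libraries, and shared 25 to 26 and 15 to 19 of the top 50 with them. TAC replicate 2 gave 0.294 to 0.360 with the deeper sham libraries and 0.251 to 0.273 with the deeper TAC libraries, and shared 18 and 10 to 12 of the top 50. The pair of shallow libraries gave 0.194. These values describe circles within a few libraries, are limited by low counts and carry no test. Between the group means the rank correlation was 0.574, and the median circle moved by 189 of 1125 ranks.

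Among the 100 core circles with the largest mean over the 6 deeper libraries, the largest rises in rank from sham to TAC were those of Ehbp1 exons 16 to 21 (952 to 32), Snrk exons 2 to 3 (646 to 37), Stx6 exons 2 to 7 (571 to 39) and Zfp148 exons 2 to 4 (511 to 22). Ehbp1 encodes an adaptor of endocytic vesicles, Snrk an AMPK-related kinase, Stx6 a SNARE protein of endosomes and Zfp148 a zinc finger transcription factor. Snrk stood at 4.17, 27.3, 2.48 and 3.31 in sham and 58.7, 0, 42.2 and 40.1 in TAC, and Zfp148 at 4.93, 13.6, 7.45 and 1.17 and 74.4, 0, 65.9 and 57.2, and in both the deeper TAC libraries were high, sham replicate 2 lay between the deeper libraries of the groups and TAC replicate 2 had 0 reads. The largest falls among the same 100 were those of Eed exons 9 to 11 (16 to 485), a subunit of the Polycomb complex PRC2, Tlk1 exons 2 to 3 (37 to 391), a chromatin assembly kinase, Erbin exons 2 to 4 (10 to 305), a scaffold that binds ERBB2, and Socs7 exons 5 to 6 (32 to 308). Erbin stood at 36.02, 13.6, 80.3 and 114 in sham and 14.1, 5.77, 5.15 and 5.09 in TAC, and Eed at 31.5, 9.09, 55.5 and 104 and 6.69, 11.5, 5.15 and 3.18. In Erbin and Eed sham replicate 2 was below the deeper sham libraries.

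Circles in the top 50 of both groups, 20 in number, formed a shared upper tier. Besides those above they included, named after their values were seen, Rasa2 exons 2 to 5 (a Ras GTPase-activating protein; ranks 13 and 18), Samd4 exon 3 (Smaug, a translational repressor; 28 and 11), Spred2 exons 2 to 4 (an inhibitor of Ras-ERK signalling; 27 and 17) and Elf2 exons 2 to 4 (an ETS transcription factor; 44 and 14). Rnf169, a ubiquitin-binding protein of DNA break sites, ranked 9 and 13, with 59.2, 72.7, 72.04 and 111 in sham and 57.3, 28.9, 90.6 and 72.5 in TAC. Myocd, the cardiac and smooth muscle coactivator myocardin, ranked 18 and 12, with 87.2, 40.9, 49.7 and 42.8 and 74.4, 34.6, 67.9 and 96.03. For both circles the groups overlapped, and their log2 fold changes over the deeper libraries were -0.11 and 0.46, neither called.

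Stability was described for the 126 core circles with at least 10 reads in each deeper library, as the SD of the log2 level over the 6 libraries. The median SD was 0.61, and the range of a circle from its lowest to its highest library was under 2-fold for 21 circles and over 10-fold for 7. The 8 most stable were Lrrc2 exons 3 to 6, Pank1 exon 2, Dcun1d1 exons 2 to 4, Camsap1 exons 2 to 3, Papd7 exons 2 to 4, Tcf20 exon 2, Mkln1 exons 2 to 6 and Amotl1 exons 4 to 6, with SDs of 0.15, 0.24, 0.25, 0.26, 0.28, 0.28, 0.28 and 0.29. They were chosen for this spread, which is therefore a description. Of the 8, 6 began at exon 2, beside 64 (51.2%) of the 125 circles matched to a transcript among the 126.

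Lrrc2, a leucine-rich repeat protein, stood at 15.2, 15.7 and 15.8 normalised reads in sham replicates 1, 3 and 4 and 19.3, 15.4 and 13.99 in TAC replicates 1, 3 and 4. Its coefficient of variation over the 6 libraries was 11.3%, below the 19.98% that counting error alone gives at its 15 to 81 reads per library. The coefficient was at or below its counting error for 5 of the 126 circles. Pank1, a pantothenate kinase of coenzyme A synthesis, stood at 13.7, 11.6 and 14.6 in sham and 9.67, 12.4 and 15.3 in TAC. Dcun1d1, a factor of cullin neddylation, stood at 8.72, 11.6 and 14.6 and 9.67, 11.3 and 12.1. These 3 circles have few reads, so their SD is known less well than that of the more abundant ones.

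Among the more abundant of the 8, Mkln1 (muskelin, of the CTLH ubiquitin ligase) ranked 21 in both groups, with 56.1, 56.3 and 42.6 in the deeper sham libraries and 72.9, 72.1 and 57.2 in the deeper TAC libraries. Camsap1, which binds microtubule minus ends, stood at 34.1, 45.5 and 53.3 and 38.7, 46.3 and 33.7. Papd7, a non-canonical poly(A) polymerase, stood at 38.3, 37.3 and 27.2 and 34.2, 47.3 and 43.9 and ranked 43 in both groups. Tcf20 exon 2, the 5772 nt circle, stood at 15.9, 13.2 and 22.2 and 20.8, 19.6 and 15.9, and Amotl1, an angiomotin family protein of cell junctions, at 14.4, 23.2 and 18.1 and 21.6, 25.7 and 21.6. With values rescaled by TMM factors, 5 of the 8 stayed among the 8 most stable: Lrrc2, Dcun1d1, Camsap1, Tcf20 and Amotl1.

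The 2 unused libraries allow a check of these levels. For each circle the reads expected from its mean over the deeper libraries were set against the exact 95% Poisson interval of the reads seen. In sham replicate 2 the expectation lay inside the interval for 8 of the 8 stable circles and for 95 of the 126 (75.4%). In TAC replicate 2 it lay inside for 6 of 8 and for 75 of 126 (59.5%). The exceptions were Mkln1 and Camsap1, with 0 reads in TAC replicate 2 where 10.3 and 7.26 were expected. At this depth most intervals are wide, so lying inside one is a weak statement.

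**Figure D4:**
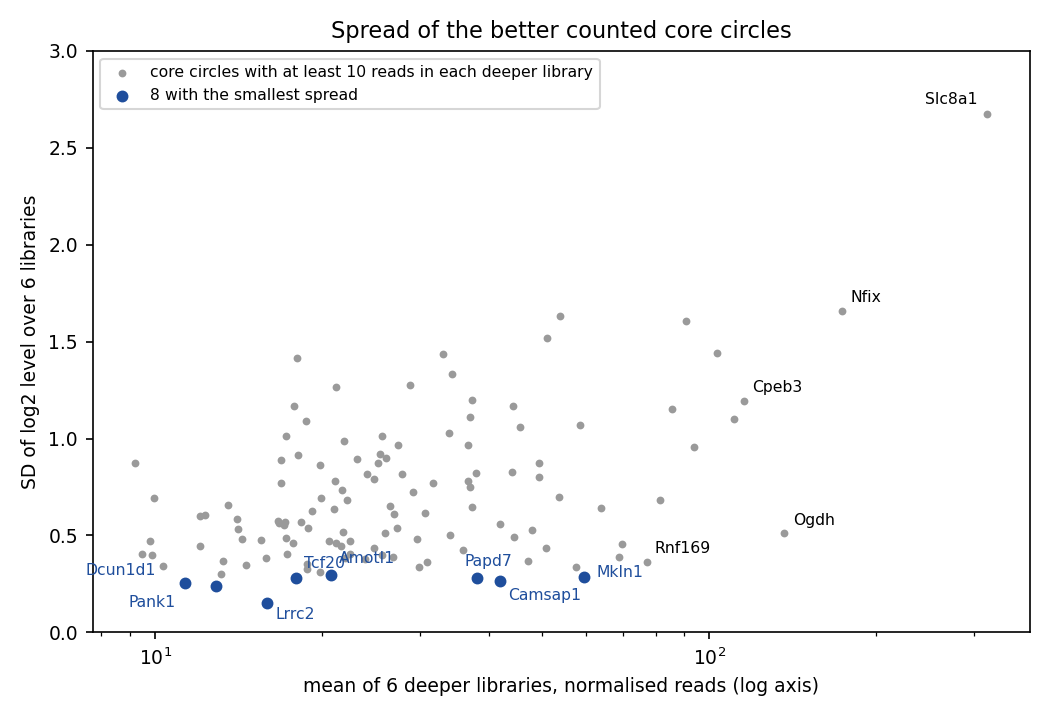
SD of the log2 level over the 6 deeper libraries (vertical) against the mean in normalised reads (horizontal, log axis) for the 126 core circles with at least 10 reads in each of them. The 8 circles with the smallest SD, 0.15 to 0.29, are blue; Slc8a1, with the largest mean, has an SD of 2.67.

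The least stable circles with a median of at least 10 reads were Ehbp1 exons 16 to 21, Slc8a1 exon 2, Stx6 exons 2 to 7 and Ttn exons 104 to 110, with SDs of 2.69, 2.67, 2.64 and 2.55. All 4 were high in the deeper TAC libraries and low in the deeper sham libraries. Ehbp1 stood at 1.14, 1.66 and 2.14 in sham and 66.9, 45.3 and 47.7 in TAC, and Stx6 at 9.86, 0.828 and 0.973 and 36.4, 51.5 and 48.97. In the shallow libraries Ehbp1 had 5 reads in sham replicate 2, or 22.7 normalised reads, and 2 reads in TAC replicate 2, or 11.5.

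The comparison of TAC with sham was fitted over all circles and is given here for the core. With all 8 libraries, limma called 1 of the 1125 core circles, Slc8a1 exon 2, against a background of 0.0268% of 3735 circles tested, which is that same circle. Its log2 fold change was 3.03 ± 0.53 (SE; limma, adjusted p = 4.4e-05), and 36 core circles had an unadjusted p under 0.05. This SE follows the trend over all circles and not the spread of Slc8a1 between mice. The groups overlapped, with 277 normalised reads in sham replicate 2 and 57.7 in TAC replicate 2. The count test of edgeR on the recovered reads called 46 of the 580 core circles it tested, 19 higher and 27 lower in TAC, against a background of 13.1% of 717. The call of Slc8a1 was lost with DESeq2 (log2 fold change 2.55), with TMM rescaling (2.90), with edgeR under RLE size factors (2.55) and with a filter of 10 reads in 4 libraries (3.03). It was also lost once the length trend of each library had been removed, where the fold change itself fell to 1.30 (limma, adjusted p = 0.61), and without TAC replicate 1 (2.50), where limma called no core circle (40 at an unadjusted p under 0.05). Without TAC replicate 2 limma called 24 core circles, beside 41 of all 3685 circles tested. Without sham replicate 2 it called 5, beside 6 of all 3546. The core's median log2 fold change over 8 libraries was -0.24 and that of all tested circles 0.15.

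Over the 6 deeper libraries limma called 177 core circles (15.7%), 109 higher and 68 lower in TAC, against a background of 11.6% of 3494 circles, 8.13% higher and 3.52% lower. The prior degrees of freedom of limma were infinite in this fit, as in that over 8 libraries. Each SE therefore follows the trend over all circles, and these p-values do not measure the spread of a circle between mice. With values rescaled by TMM factors the calls were 76 higher and 85 lower, and with edgeR on the reads 83 higher and 103 lower of 790 tested, against 30.0% of 1145 in the background. The direction of the majority therefore depends on the scaling. The 3 sham and 3 TAC libraries did not overlap for 403 core circles (35.8%), near the background of 33.8%. The core's median log2 fold change over the deeper libraries was 0.08, against 0.45 for all tested circles, and -0.13 against 0.27 after TMM rescaling. Leaving out the shallow libraries was the alternative that moved the number of calls most, and whether the depth or the makeup of those libraries accounts for this was not tested.

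Slc8a1, Nfix, Ttn exons 104 to 110, Stk39, Ryr2 exons 24 to 29 and Ehbp1 were the core circles with the smallest p among those higher in TAC over 8 libraries. All 6 were called over the 6 deeper libraries. Nfix had a log2 fold change of 2.91 ± 0.32 (SE; limma, adjusted p = 3.3e-17) there and of 1.89 over all 8 libraries, where it did not pass. Titin's circle of exons 104 to 110 stood at 4.93, 63.6, 2.48 and 8.37 in sham and 118, 11.5, 127 and 98.6 in TAC, a change over the deeper libraries of 4.54 ± 0.42 (SE; limma, adjusted p = 1.4e-23). Stk39, a kinase of the WNK pathway, stood at 16.7, 54.5, 7.45 and 4.09 and 73.6, 23.1, 86.5 and 96.7, and Ryr2 exons 24 to 29 at 10.6, 18.2, 1.66 and 8.75 and 81.8, 17.3, 51.5 and 71.9. In all 6 circles sham replicate 2 lay above TAC replicate 2, whereas in the deeper libraries every TAC value lay above every sham value.

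Among those lower in TAC, the smallest p over 8 libraries belonged to Cpeb3, Ube2d2a, Arhgap10 exons 14 to 18, Arhgap32, Rbms1 and Pik3c2a. None passed over 8 libraries (limma, adjusted p = 0.834 for each) and all 6 were called over the deeper libraries. Cpeb3 had a log2 fold change of -1.99 ± 0.33 (SE; limma, adjusted p = 1.3e-07) there. Ube2d2a, a ubiquitin-conjugating enzyme, stood at 33.4, 40.9, 49.7 and 99.4 in sham and 14.9, 0, 14.4 and 12.1 in TAC, so that every sham library lay above every TAC library. Rbms1, an RNA-binding protein, stood at 95.9, 13.6, 55.5 and 62.5 and 38.7, 0, 8.23 and 26.1. Pik3c2a, a class II phosphoinositide 3-kinase, stood at 20.5, 9.09, 24.8 and 28.2 and 5.20, 0, 2.06 and 1.27, with 0 reads in TAC replicate 2.

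Length moved with these changes. The core circles called higher over the deeper libraries had a median length of 582 nt, those called lower 303 nt and those not called 396 nt, and 54.6%, 33.8% and 35.4% of them began at exon 2. Of the 161 core circles of 201 to 300 nt, 1 was called higher and 32 lower, and of the 381 of 301 to 400 nt, 11 and 26. Of the 355 of 401 to 600 nt, 47 were called higher and 5 lower, of the 177 of 601 to 1000 nt, 38 and 3, and of the 31 longer ones, 11 and 0. These counts stand beside 8.13% higher and 3.52% lower over all circles tested. Whether circles outside the core follow the same order of length was not tested. The median log2 fold change went from -0.86 in the class of 201 to 300 nt to 1.55 in the class over 1000 nt, while the 16 circles of up to 200 nt, 0 called higher and 2 lower, had a median of -0.43. Once the length trend of each library had been removed, an alternative added after seeing the data, 112 core circles (9.99%) were called over the deeper libraries, 42 higher and 70 lower. Of these, 73 were among the 177. Of all 3482 circles tested in that fit, 206 were called, 94 higher and 112 lower. Over 8 libraries the same step moved Slc8a1 from 3.03 to 1.30, Ttn exons 104 to 110 from 2.80 to 1.75 and Nfix from 1.89 to 1.32. It left Ube2d2a at -3.39 against -3.42 and Pik3c2a at -3.80 against -3.82, and moved Arhgap32 from -2.47 to -3.36. No core circle was called after it over 8 libraries with limma (74 at an unadjusted p under 0.05). Over the deeper libraries, the 5772 nt circle of Tcf20, with a log2 fold change of 0.15, and the 303 nt circle of Rad52, with 1.97, lay away from the order of length.

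**Figure D5:**
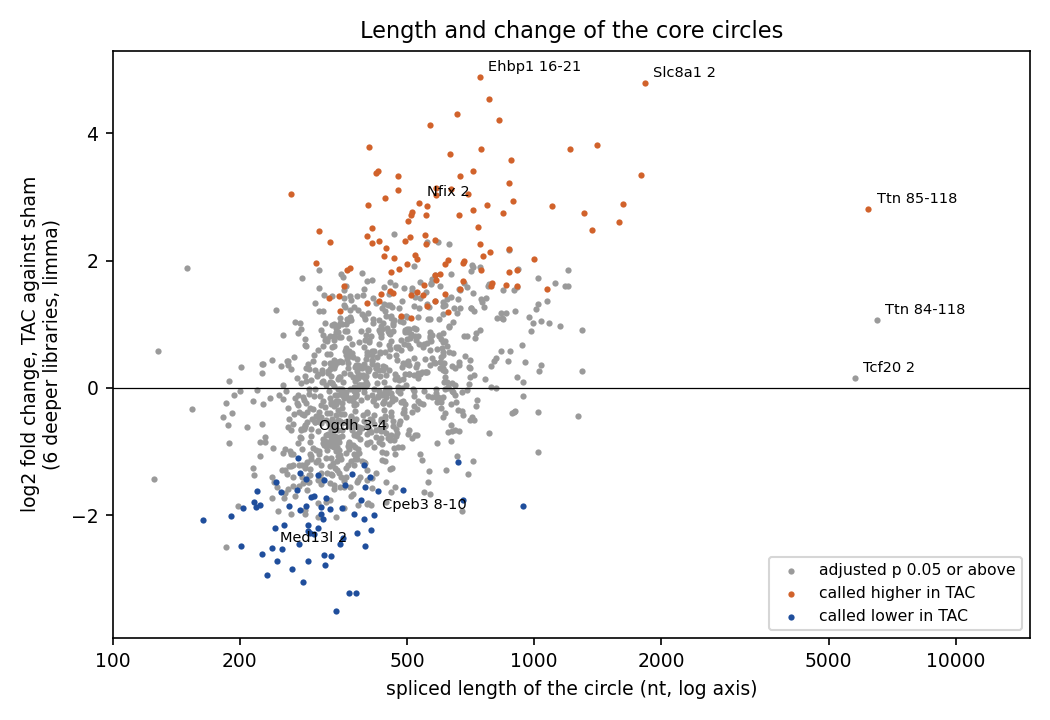
Log2 fold change of TAC against sham over the 6 deeper libraries (vertical, limma) against spliced length (nt, horizontal, log axis) for the core circles with a length. Orange points were called higher (109 in all) and blue points lower (68), with median lengths of 582 and 303 nt.

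Circles of one host did not always move together. Of 164 hosts with a called core circle, 13 had 2 or more, and these were all higher in 9 hosts, all lower in 1 and in both directions in 3, of which Asph and Arhgap32 are described, named after their values were seen. In Asph, exons 2 to 3 (219 nt) had a log2 fold change of -1.87 and exons 4 to 12 (528 nt) one of 2.03. In Arhgap32, exons 14 to 18 (679 nt) had -1.76 and exons 6 to 9 (432 nt) 1.47. The longer circle was the higher one in Asph and the lower one in Arhgap32.

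Heart muscle genes were a small part of the hosts. Of the circles listed for 57 sarcomere and Z-disc genes, 19 were core circles from 10 hosts, 5 called higher over the deeper libraries and 1 lower. Those higher were Fhl2, both Ttn circles of exons 104 to 110 and 85 to 118, Mypn and Fhod3. Calcium handling and ion channel genes gave 29 core circles from 11 hosts, of which 5 were called higher, 2 of Slc8a1 and 1 each of Ryr2, Cacna1c and Asph, and 2 lower, of Asph and of Atp2a2, the calcium pump SERCA2. Intercalated disc and costamere genes gave 26, with 2 higher, from Sorbs2 and Mlip, and 0 lower. Sorbs2, an adaptor of the Z-disc and intercalated disc, stood at 11.8, 9.09, 5.80 and 3.89 in sham and 75.8, 0, 66.9 and 67.4 in TAC for exons 7 to 12. Utrophin's circle of exons 60 to 64, which was not called, stood at 47.4, 18.2, 36.4 and 24.1 and 57.997, 0, 58.7 and 62.96. The background over all circles tested was 8.13% higher and 3.52% lower, and the median log2 fold changes of the 3 lists, 0.83, 0.08 and 0.33, stand beside 0.45 for all circles tested and 0.08 for the whole core. Core circles made up 3.71%, 6.24% and 4.44% of the circles listed for these 3 lists, against 4.11% of all circles.

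Regulators of growth and gene expression gave more core circles than the muscle genes, from longer lists. The lists of growth signalling, chromatin and RNA-binding genes held 95, 141 and 116 genes. Core circles were 7.65%, 4.48% and 4.72% of their listed circles, against 4.11% of all circles. Growth and hypertrophic signalling genes gave 69 core circles from 38 hosts, 6 called higher, including Hipk3, Stk39 and Insr, and 8 lower, including Arhgap32, both Arhgap10 circles and Pik3c2a. Hipk3 exon 2, 1099 nt, stood at 17.1, 54.5, 8.28 and 13.4 in sham and 135, 0, 68.96 and 80.8 in TAC. Chromatin and transcription regulators gave 52, with 8 higher, including Nfix, Cdyl exon 5 and Kat6b, and 2 lower, Med13l and Eed. Med13l exon 2 stood at 48.5, 18.2, 79.5 and 123 in sham and 11.2, 75.1, 8.23 and 26.1 in TAC, with TAC replicate 2 at the level of the deeper sham libraries. RNA-binding and splicing factors gave 34, with 3 higher, including Qk and Rbm20, and 5 lower, including Cpeb3, Rbms1, Cnot6l and Cnot2. Their median log2 fold changes over the deeper libraries were -0.08, 0.24 and -0.60. Of all circles tested there, 8.13% were called higher and 3.52% lower, and of the whole core 15.7% were called.

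Among genes of protein turnover and transport, ubiquitin, proteasome and autophagy genes gave 41 core circles, 3 higher and 2 lower. Ube3a, a ubiquitin ligase, was the lower one with the larger mean, at 39.8, 68.1, 75.4 and 129 in sham and 9.67, 69.3, 6.18 and 13.4 in TAC, where TAC replicate 2 lay among the sham libraries. Membrane trafficking and cytoskeleton genes gave 66, with 11 higher and 1 lower. Enah, an actin regulator, stood at 28.1, 9.09, 28.98 and 22.6 and 78.8, 11.5, 69.99 and 66.8. DNA repair and cell cycle genes gave 12, with 3 higher, from Rad52 and Ttc3, and 0 lower. Their median log2 fold changes were -0.11, 0.27 and 0.29. These counts stand beside 8.13% higher and 3.52% lower over all circles tested, and 15.7% called in the whole core.

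Metabolic genes gave 19 core circles from 15 hosts, 2 called higher (Oxct1, an enzyme of ketone body use, and Dlst, the E2 subunit of the 2-oxoglutarate dehydrogenase complex) and 2 lower (Hadhb and Pdss2). Oxct1 exons 4 to 7 stood at 20.1, 4.54, 10.8 and 8.56 in sham and 39.4, 0, 21.6 and 53.4 in TAC. Extracellular matrix and TGF-beta genes gave 14, of which 2, both of the signal transducer Smad4, were called higher. The stress and fetal gene programme gave 2, from Myocd and Mef2a, and that of Mef2a was called higher, with a log2 fold change of 2.52. Hosts already studied for their circles in heart or across species gave 87 core circles from 44 of 69 genes, with 20 higher and 8 lower. The other 716 core circles, from 566 hosts, belonged to none of these lists or of the cell type markers. The median log2 fold changes of the metabolic, matrix and circle host lists were -0.0035, -0.07 and 0.11. Their called counts stand beside 8.13% higher and 3.52% lower over all circles tested, and 15.7% called in the whole core.

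Markers of other cell types gave few core circles, and each of these lists had fewer listed circles than the 508 of the cardiomyocyte markers. No core circle came from the 16 fibroblast, 7 adipocyte, 9 Schwann cell and neuron or 8 erythroid marker genes, although 76, 16, 7 and 11 circles of these genes were listed. Cardiomyocyte markers gave 18 core circles from 7 hosts, with 7 called higher and 0 lower, beside 8.13% higher and 3.52% lower over all circles tested. Their median log2 fold change was 0.47, against 0.45 for all circles tested and 0.08 for the whole core. This list overlaps the muscle gene lists above. Endothelial markers gave 5, from Dysf, Flt1, Mecom, Npr3 and Pecam1, of which Npr3, the natriuretic peptide clearance receptor, was called lower, at 14.8, 9.09, 9.11 and 17.7 in sham and 2.97, 0, 2.06 and 3.82 in TAC. Smooth muscle and pericyte markers gave 1, from Abcc9, and leukocyte markers 3, from Adgre1 and F13a1, none called. Core circles were 3.40%, 3.45% and 5.56% of the circles listed for endothelial, smooth muscle and leukocyte markers. They were 3.54% of those listed for cardiomyocyte markers and 4.11% of all circles. Which cells the circles of these marker genes came from, and the part of cell composition in the calls, were not tested.

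The threshold of the selection can be seen from the circles beside it. The lowest means inside were those of Tdrd7 exons 15 to 16, Slco3a1 exons 5 to 7 and Rmnd5a exons 3 to 4, which had 1 to 4 reads in each deeper library and means of 0.70 to 0.93 normalised reads. Altogether 477 core circles had 1 read in at least 1 deeper library and 775 had 1 to 3, so the membership of these circles rests on few reads. The highest means outside, above 0 in exactly 5 deeper libraries, were those of Pdlim5 exons 7 to 10, Zfp609 exon 2 and Corin exons 7 to 10, with 31.6, 29.2 and 20.3 normalised reads. All 3 had 0 reads in sham replicate 3, the shallowest of the 6, and were high in the deeper TAC libraries: Zfp609 stood at 40.2, 71.0 and 61.1 there and at 0.758, 0 and 2.14 in the deeper sham libraries. Circles with no read in a deeper library of either group lie outside the core by its rule, so the fold changes given here leave them out.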

How the data were processed

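Circular RNA of mouse hearts was sequenced, 4 sham and 4 TAC libraries of separate mice, numbered in accession order. The submitters' processing notes name mm10, HISAT2, StringTie and DESeq2, without roles, and the circle caller and the strand are not given in the sources used. Values are of the unit signal, in which the authors divided a circle's back-spliced reads by a factor for its library. This follows from the values, of which 100% were whole multiples of the smallest in a library within 0.001, and whose factors equal DESeq2's median-of-ratios. Whole reads were so recovered. The design had assumed raw counts; limma on the values therefore became the main test.

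limma 3.58.1 with an intensity trend was run on log2(value + 0.195), where 0.195 is the lowest value that is not 0, keeping circles seen in 4 or more of the 8 libraries (or of the 6 deeper), with Benjamini-Hochberg adjustment over all circles tested and a threshold of 0.05. Fold changes are on that scale. edgeR 4.0.16 (quasi-likelihood, TMM; minimum count 5, total 15) and DESeq2 1.42.0 on the recovered reads, other pseudocounts, filters and scalings, and leaving out each library were alternatives. Library measures were tested by exact permutation. Scripts were tested on simulated data.

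Exon numbers, lengths and junction sequences come from GENCODE M21 transcripts. Coordinates count from 1. The authors' gene names include 2 core hosts turned into dates by a spreadsheet, which are in no list.

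The members and gene lists were chosen with earlier results of these data known. Named circles were the 10 largest means, the 8 most and 4 least stable, the 6 smallest p per direction, the 4 largest rank shifts each way within the top 100, up to 3 per host list, the most exons, hosts with most core circles, and 3 circles on each side of the threshold; not all are printed, and some results are not reported here.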

Additional observations from a re-analysis of the deposited data

Results flagged for a closer look

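A library far from the other 3 of its group was found in 16 cases, among 144 groups of 4 examined (3 library measures and 69 named circles in 2 groups). The rule, Dixon's test at its 95% level, flags about 1 group in 20 by chance, and 14 of the 16 cases lie in the shallow library of a group. Many of the 69 circles were named for their values in the deeper libraries, so neither figure is free of that choice.

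In sham replicate 2, core circles held 43.8% of reads and single-exon circles 10.2% of core reads, against at least 56.2% and at most 4.97% in the other sham libraries. Its level stood above the other sham libraries for Slc8a1 exon 2 (277), Rad52 exons 10 to 11 (186), Ttn exons 104 to 110 (63.6), Ttn exons 85 to 118 (118), Ehbp1 exons 16 to 21 (22.7), Snrk exons 2 to 3 (27.3) and Smad4 exons 5 to 8 (22.7), and below them for Lrrc2 exons 3 to 6 (4.54, a single read), all in normalised reads. The 7 circles raised there were all called higher in TAC over the 6 deeper libraries. Circles with a large change or a small spread over those libraries were among the ones named, so this is in part set by the choice.

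In TAC replicate 2, Ube3a exons 2 to 4 (69.3) and Socs7 exons 5 to 6 (23.1) stood above the other TAC libraries, and Utrn exons 60 to 64 (0) and Sorbs2 exons 7 to 12 (0) below them. Ube3a and Socs7 were called lower in TAC over the 6 deeper libraries. Erbin exons 2 to 4 stood apart in TAC replicate 1 (14.1) and Smad4 exons 2 to 4 in sham replicate 3 (24.8). What sets these libraries apart, wrong labels included, was not tested.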

How the results depend on the processing

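No paired analysis was possible because the labels carry no replicate numbers that sham and TAC mice share.

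Over 8 libraries limma called 1 of 1125 core circles, edgeR 38 of 580 with RLE size factors and 46 of 580 with TMM, and DESeq2 10 of 1125. On the 6 deeper libraries limma called 177 of 1125 and edgeR 186 of 790. Of all circles tested, these fits called 1 of 3735, 82 of 717, 94 of 717, 23 of 27382, 407 of 3494 and 344 of 1145, in that order. With edgeR and TMM the core's share was below that of all circles tested, at 7.93% against 13.1% over 8 libraries and 23.5% against 30.0% over 6. The count over 8 libraries was 0 with a filter of 10 reads in 4 libraries, with TMM rescaling or with the length trend removed (16, 20 and 74 of unadjusted p under 0.05). Leaving out each library gave 0 to 24. A pseudocount of 1 and no filter left it at 1. Over the 6 deeper libraries the count of 177 became 112 with the length trend removed, and 118 to 187 without each library. DESeq2 gave 127. Of all circles tested, 206 of 3482 were called with the length trend removed and 288 of 26984 with DESeq2.

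The difference in the share of reads ran from -8.50 (without sham replicate 2, exact p = 0.0286) to -4.09 points without each library. That in mean exon number ran from 0.033 to 0.30, and was -0.14 when each core circle was counted once, a reversal (exact permutation p = 0.571). That in the single-exon share ran from 5.45 to 7.91 points without each library, with an exact p of 0.0571 without any 1 TAC library, and was 0.41 with each circle counted once (exact p = 1). The causes were not tested.

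The core held 648 circles at 2 reads or more in each deeper library, 284 at 5, 126 at 10, and 115 above 0 in all 8 libraries. Of the 8 most stable, 5 stayed under TMM rescaling. For the 12 circles named for the contrast no alternative turned the direction. They were chosen for the smallest p over 8 libraries, so this is in part set by the choice. Of the 10 largest means, Rad52 exons 10 to 11 and Lrch3 exons 2 to 6 did turn. Both were called higher in TAC over the 6 deeper libraries and had a negative log2 fold change over 8, not called. For Lrch3 it went from 1.19 to -1.23. The others of the 10 kept their sign between these 2 fits. Depth limits most of the core: 775 of 1125 circles rest on 1 to 3 reads in some deeper library.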
